A study of Mus musculus with 8 samples.

Results

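The genes described here are 9 genes of antigen presentation on MHC class II: the chains H2-Aa, H2-Ab1 and H2-Eb1, the invariant chain Cd74, the DM chains H2-DMa, H2-DMb1 and H2-DMb2, the transactivator Ciita, and Cd83. They were chosen as a pathway, with earlier results of these data known, and picked by symbol from the 27179 genes of the deposited table, and each symbol matched a single row. RNA was measured in 8 libraries of LTi cells, or lymphoid tissue inducers, which are innate lymphoid cells that help to build lymphoid tissue. They were sorted from C57BL/6 mice as lineage-negative, CD127+, KLRG1-, NK1.1-, NKp46- and CCR6+ cells. The cells came from Peyer's patches (PP), the lymphoid follicles of the small intestine, or from the small intestinal lamina propria (LP). The mice were Tcf7+/+ (called wild-type below) or carried Tcf7fl/fl, a Tcf7 allele that Cre can delete, with a Cre transgene, so that deletion is limited to cells in which Cre acts or has acted. Each of the 4 combinations of tissue and genotype had 2 libraries. The sources used here give no ages. The labels do not say whether the 2 libraries of a group came from separate animals, so the p-values below measure only the spread between these libraries. The design asks how Tcf7, which encodes the transcription factor TCF-1, and the tissue bear on the RNA of LTi cells.

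MHC class II molecules are pairs of an alpha and a beta chain that carry peptides to the cell surface for CD4+ T cells. H2-Aa and H2-Ab1 encode the chains of I-A, and H2-Eb1 encodes the beta chain of I-E, whose alpha chain C57BL/6 mice do not make. The invariant chain, encoded by Cd74, fills the groove of new class II molecules until proteases digest it, and the DM heterodimer then exchanges the remaining fragment for a peptide. CIITA is recruited to the promoters of these genes by proteins that bind their X and Y boxes and switches them on. CD83 is a surface protein that keeps class II on the cell surface by opposing the ubiquitin ligase MARCH1. ILC3, the class of cells that LTi cells belong to, are known to carry class II at lower levels than dendritic cells.

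The promoter letters of the class II genes are shown because these genes are known to be switched on together through shared boxes. The windows below are RefSeq sequences of GRCm38.p6, the assembly of mm10, from 250 bases before to 50 bases after the transcript start, each written 5′ to 3′ on the strand of its gene. Capitals mark matches to 3 strings searched on both strands. These were TGATTGG, a Y box or inverted CCAAT, AACNGATGATG, an X box core whose letters were chosen after these promoters were seen, and TGACGTCA, the cyclic AMP response element, which reads the same on both strands. The marked matches do not overlap. The H2-Aa window is chr17:34287774-34288073 on the minus strand, and the windows of H2-Eb1 (chr17:34305617-34305916), H2-DMb1 (chr17:34152941-34153240) and H2-DMb2 (chr17:34144999-34145298) are on the plus strand.
H2-Aa: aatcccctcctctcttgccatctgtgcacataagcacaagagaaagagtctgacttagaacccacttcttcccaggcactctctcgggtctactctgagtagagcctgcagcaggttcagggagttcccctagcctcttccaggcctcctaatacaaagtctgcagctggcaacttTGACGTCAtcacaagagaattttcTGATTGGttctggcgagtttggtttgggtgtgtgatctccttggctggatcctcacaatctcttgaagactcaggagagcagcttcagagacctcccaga
H2-Eb1: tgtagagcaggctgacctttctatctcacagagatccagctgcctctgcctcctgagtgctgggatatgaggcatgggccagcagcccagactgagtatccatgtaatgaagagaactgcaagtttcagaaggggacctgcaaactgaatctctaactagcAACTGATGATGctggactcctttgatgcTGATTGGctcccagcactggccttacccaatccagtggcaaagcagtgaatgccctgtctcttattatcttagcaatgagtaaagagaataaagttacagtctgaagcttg
H2-DMb1: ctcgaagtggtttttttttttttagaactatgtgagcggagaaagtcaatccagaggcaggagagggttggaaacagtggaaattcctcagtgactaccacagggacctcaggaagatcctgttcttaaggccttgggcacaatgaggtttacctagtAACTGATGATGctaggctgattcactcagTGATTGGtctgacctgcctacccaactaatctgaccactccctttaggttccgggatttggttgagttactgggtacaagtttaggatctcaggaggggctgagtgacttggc
H2-DMb2: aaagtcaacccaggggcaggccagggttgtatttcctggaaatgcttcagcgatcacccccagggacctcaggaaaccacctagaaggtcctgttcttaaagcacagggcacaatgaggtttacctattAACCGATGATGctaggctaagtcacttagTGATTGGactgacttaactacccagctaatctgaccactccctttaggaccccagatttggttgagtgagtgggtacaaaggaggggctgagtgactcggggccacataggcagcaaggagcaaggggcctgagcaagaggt

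The Y box string was found in all 4 windows, starting 50 bases before the transcript start in H2-Aa, 61 in H2-Eb1, 63 in H2-DMb1 and 92 in H2-DMb2. It stood in 2568 (7.82%) of the 32851 promoter windows of this length in the RefSeq table. The X box core string lay upstream of it in H2-Eb1, H2-DMb1 and H2-DMb2, starting 89, 92 and 121 bases before the start. This string stood in 20 (0.061%) of all windows, these 3 included. Its letters were taken from these 3 windows, so its presence in them was fixed in advance. In H2-Aa the cyclic AMP response element string stood at 74 bases before the start, and 588 windows (1.79%) held it. The 2 windows of H2-DMa held none of the 3 strings. A match is a description of letters and not a measured binding site. H2-Ab1, Ciita and Cd83 had no entry in this table, and the promoter of Cd74 is not shown.

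The levels below are RPKM, reads per gene scaled to the gene's length and the library's depth, which the authors deposited as log2(RPKM + 1). They can be compared between genes because they are per length. By the mean over the 8 libraries, Cd74 was the highest of the 9 genes at 789 RPKM, rank 77 of the 27179 genes in the table. Cd83 followed at 616 RPKM (rank 107), then H2-Aa at 388 (rank 204), H2-Ab1 at 363 (rank 220) and H2-Eb1 at 175 (rank 519). H2-DMa had 35.7 RPKM (rank 2481), H2-DMb2 had 4.89 (rank 7818), Ciita 1.34 (rank 10624) and H2-DMb1 0.980 (rank 11099). The chains of I-A and I-E, Cd74, Cd83 and H2-DMa were thus listed far above the transactivator Ciita, while H2-DMb2 was closer to it and H2-DMb1 below it. Neighbours in this order overlapped in their ranges over the 8 libraries, as H2-Aa (199.9 to 651 RPKM) and H2-Ab1 (33.7 to 856) did. The exception was H2-Eb1, at 90.9 RPKM or more, and H2-DMa, at 79.8 or less.

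**Figure D1:**
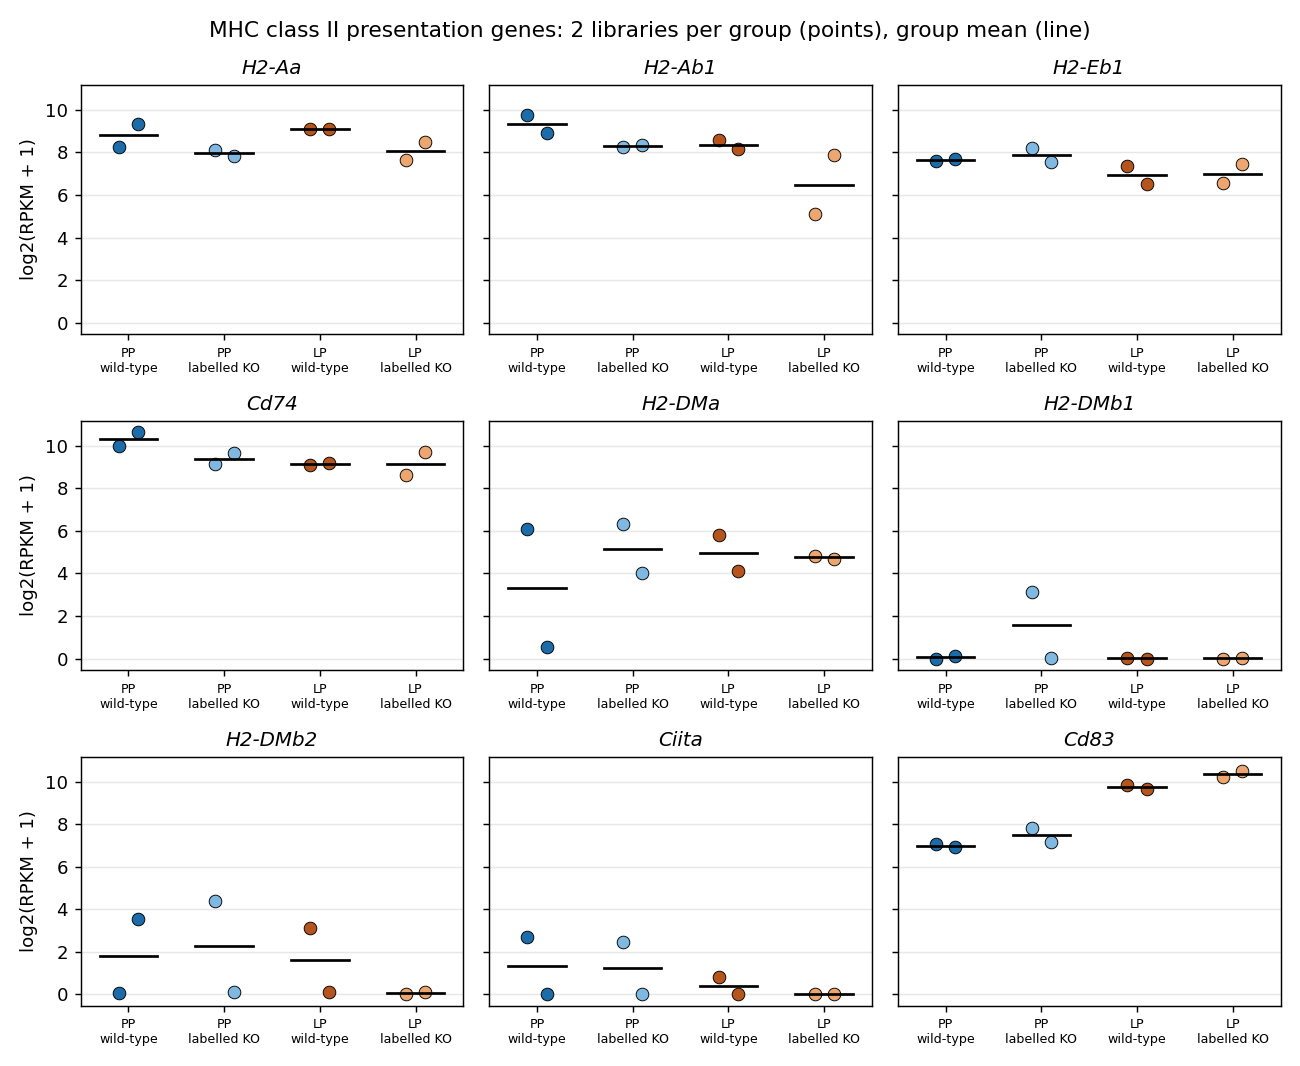
Level of each of the 9 genes, log2(RPKM + 1), in the 4 combinations of tissue and genotype label (KO, knockout). Points are the 2 libraries of a group and lines their mean on this scale. Cd83 separates LP from PP, the chains and Cd74 stay high apart from H2-Ab1 in the first LP library labelled knockout (33.7 RPKM), and H2-DMb1, H2-DMb2 and Ciita lie near 0 in most libraries.

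H2-Aa, the I-A alpha chain (Entrez Gene 14960, chr17:34282744-34287823 on GRCm38), had 306 and 651 RPKM in the wild-type PP libraries and 273 and 228 in PP labelled knockout. In LP it had 549 and 544 RPKM in the wild-type libraries and 199.9 and 356 in those labelled knockout. Within each tissue both libraries labelled knockout were below both wild-type ones, while PP and LP overlapped.

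H2-Ab1, the I-A beta chain (14961, chr17:34263227-34269418), had 856 and 487 RPKM in wild-type PP, 303 and 324 in PP labelled knockout. The LP libraries had 382 and 283 RPKM where wild-type and 33.7 and 234 where labelled knockout. It too was lower in both libraries labelled knockout than in both wild-type ones within each tissue. The first LP library labelled knockout stood far below the other 7. The 2 chains of I-A were not listed at an even ratio: H2-Aa divided by H2-Ab1 was 0.357 in the first wild-type PP library, 5.94 in the first LP library labelled knockout, and between 0.705 and 1.93 in the other 6.

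H2-Eb1, the I-E beta chain (14969, chr17:34305867-34316674), had 195 and 209 RPKM in wild-type PP, 292 and 187 in PP labelled knockout. Its LP values were 161 and 90.9 RPKM (wild-type) and 92.7 and 172 (labelled knockout). The 4 PP libraries were all above the 4 LP libraries, with a narrow gap between 187 and 172 RPKM, and the genotypes overlapped in both tissues.

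Cd74, the invariant chain (16149, chromosome 18), had 1006 and 1596 RPKM in wild-type PP and 556 and 808 in PP labelled knockout. In LP it had 544 and 585 RPKM in the wild-type libraries and 388 and 831 in those labelled knockout. The wild-type PP libraries were the 2 highest of the 8, and the genotypes overlapped in LP. Summed over H2-Aa, H2-Ab1, H2-Eb1 and Cd74, the level was 2363 and 2943 RPKM in wild-type PP, 1423 and 1547 in PP labelled knockout. In LP the sum was 1637 and 1503 for the wild-type and 714 and 1592 for the labelled knockout. In bulk libraries such as these, fewer cells that express a gene and less RNA per cell cannot be told apart.

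The DM genes were listed unevenly within groups. H2-DMa (14998, chr17:34119693-34139101) had 67.1 and 0.461 RPKM in wild-type PP, 79.8 and 15.02 in PP labelled knockout. For LP the values were 55.0 and 16.5 RPKM (wild-type) and 27.5 and 24.6 (labelled knockout). It was above 10 RPKM in every library but the second wild-type PP one, where 0.461 RPKM stood for about 40.3 reads, against about 5136 in its partner library. H2-DMb2 (15000, chr17:34143229-34151553) reached 10.9 RPKM in the second wild-type PP library, 20.3 in the first PP library labelled knockout and 7.67 in the first wild-type LP library, and lay between 0.0303 and 0.0974 in the other 5. H2-DMb1 (14999, chr17:34153191-34160229) was at 7.69 RPKM, about 409 reads, in the first PP library labelled knockout. It was listed at 0 in 3 libraries and at 0.0194 to 0.0877 RPKM in the other 4. H2-DMa and the DM beta genes were not high in the same libraries throughout: the wild-type PP library with H2-DMa at 67.1 RPKM had H2-DMb2 at 0.0327, and its partner had 0.461 and 10.9. H2-DMb1 and H2-DMb2 are near copies. Their longest annotated transcripts share 361 stretches of 50 bases, 26.6% of those in H2-DMb1 and 25.2% of those in H2-DMb2, so the split of reads between them is uncertain.

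Ciita, the transactivator (12265, chr16:10480014-10531064), had 5.42 RPKM in the first wild-type PP library and was listed at 0 in the second. It had 4.52 and 0.0088 in PP labelled knockout. LP libraries had 0.740 and 0.0135 (wild-type) and 0.0168 and 0.0135 (labelled knockout). The 4 lowest values above 0 stood for about 2.1 to 4.2 reads each, at an estimated 37.8 to 43.6 M reads per library. In the library that listed Ciita at 0, H2-Aa and Cd74 were at their highest of the 8, 651 and 1596 RPKM. With Ciita this close to 0, its relation to the levels of the chains could not be measured.

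Cd83 (12522, chr13:43785112-43803133) had 131 and 120.2 RPKM in wild-type PP, 224 and 141 in PP labelled knockout. Its level in LP was 907 and 794 RPKM in wild-type and 1194 and 1421 in labelled knockout libraries. All 4 LP libraries were above all 4 PP libraries, and within each tissue both libraries labelled knockout were above both wild-type ones. Its spread around the group means was among the smallest measured, with a residual SD of 0.26 on the log2 scale, against a median of 1.28 over the 10541 genes tested. The same SD was 0.49 for H2-Aa, H2-Eb1 and Cd74, 1.03 for H2-Ab1, 1.31 for Ciita, 2.21 for H2-DMa and 2.23 for H2-DMb2. The DM genes thus allowed only wide intervals in the tests that follow.

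Of the 9 genes, 8 had at least 1 RPKM in at least 2 libraries and entered the tests with the other genes that met this minimum, 10541 in all. H2-DMb1, with 1 such library, did not. Differences are log2 fold changes of RPKM + 1, which understate the change of genes near 0, with standard errors from limma, and the threshold was an adjusted p of 0.05 (Benjamini-Hochberg, over the 10541 genes).

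Between tissues, Cd83 was the gene that changed: it was higher in LP. Its mean was 154 ± 47.3 RPKM (SD, n = 4) in PP and 1079 ± 283 (SD, n = 4) in LP. With both genotypes fitted together, the log2 fold change (LP minus PP) was 2.81 ± 0.22 (95% interval 2.32 to 3.30, limma adjusted p = 1.13e-04). Within wild-type libraries the log2 fold change was 2.75 ± 0.29 (limma adjusted p = 0.00819), and within libraries labelled knockout it was 2.87 ± 0.29 (limma adjusted p = 0.00785). In each of these 3 comparisons Cd83 was the single gene of the 8 to pass, where 4.33% of all genes tested passed for the tissues with both genotypes together, 2.13% in the wild-type and 2.0% in the libraries labelled knockout. The call with both genotypes together held in each of 15 other settings and left-out libraries. The call within wild-type libraries was lost without either wild-type LP library (log2 fold change 2.65 and 2.84, adjusted p = 0.130 and 0.108), and the call within libraries labelled knockout was lost without the second PP library (2.54, adjusted p = 0.0508), the first LP library (2.99, 0.0551) or the second (2.74, 0.0588). Counting non-overlap in place of the test, Cd83 was alone of the 8 in having all LP libraries above all PP libraries (6.54% of all genes tested), and H2-Eb1 alone in the opposite order (7.05%).

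The other genes did not pass between tissues. H2-Ab1 had a log2 fold change of -1.39 ± 0.52 (95% interval -2.53 to -0.24, limma adjusted p = 0.174). This value was -0.75 without the first LP library labelled knockout. H2-Eb1 had -0.81 ± 0.34 (-1.55 to -0.06, adjusted p = 0.222) and Cd74 -0.70 ± 0.30 (-1.37 to -0.03, adjusted p = 0.237). These 3 genes and Cd83 had unadjusted p-values under 0.05, as did 19.4% of all genes tested. H2-Aa, the partner chain of H2-Ab1, had 0.19 ± 0.29 (-0.46 to 0.84, adjusted p = 0.789), and without the first wild-type PP library the sign turned (-0.04). For H2-DMa the interval ran from -1.95 to 3.19, for H2-DMb2 from -4.0 to 1.63 and for Ciita from -2.85 to 0.70, each holding both a rise and a fall. The median over the 8 genes was -0.75, beside -0.10 over all genes tested. Within wild-type libraries Cd74 had a log2 fold change of -1.17 ± 0.41 (adjusted p = 0.210), and its 2 LP libraries were below both PP ones, as were those of H2-Ab1 and H2-Eb1 (21.4% of all genes tested). At an unadjusted p under 0.05, 2 of the 8 genes stood within wild-type libraries and 1 within libraries labelled knockout, beside 17% and 14.7% of all genes tested. The ratio of Cd83 to Cd74 ran from 0.0753 to 0.403 in the PP libraries and from 1.36 to 3.08 in LP. Cd74 itself overlapped between the tissues, at 556 to 1596 RPKM in PP and 388 to 831 in LP.

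**Figure D2:**
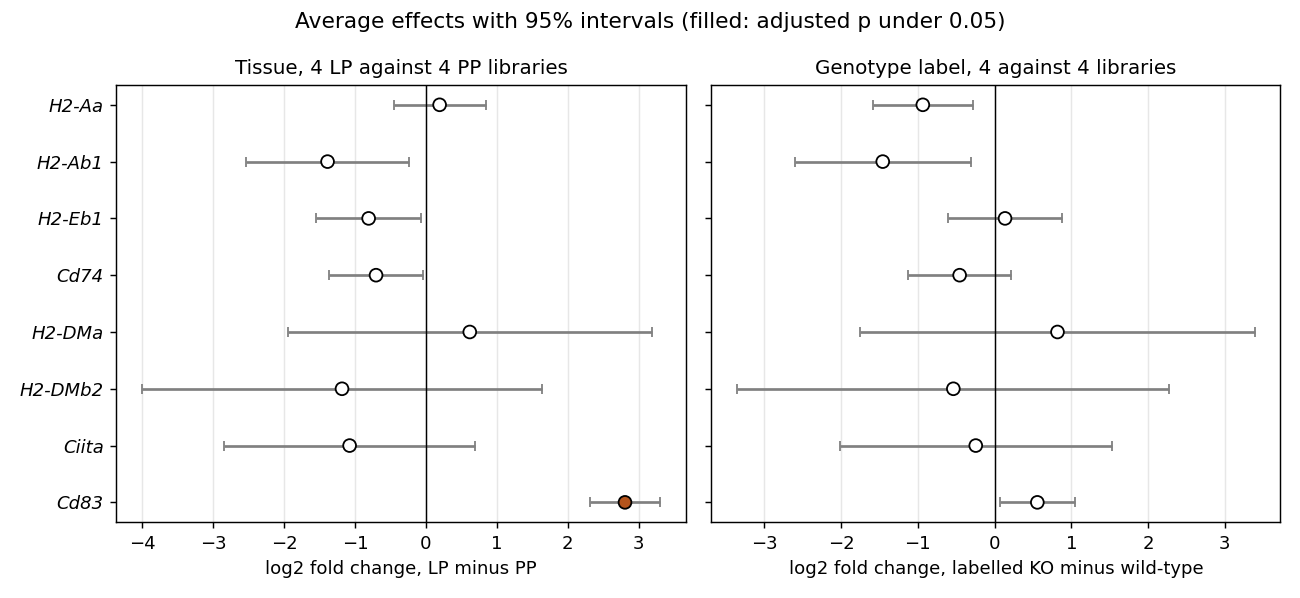
Log2 fold changes of RPKM + 1 (points) with 95% intervals from limma (bars) for the 8 genes tested, for tissue (LP minus PP, left) and genotype (labelled knockout minus wild-type, right), each from the additive model. The interval of Cd83 between tissues, 2.32 to 3.30, is the one of a gene that passed (filled point), and those of H2-DMa, H2-DMb2 and Ciita are the widest.

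Before the genotypes were compared, the targeted gene was read in every library. Tcf7 had 243 and 85.4 RPKM in wild-type PP, 355 and 337 in PP labelled knockout. In LP the wild-type libraries had 229 and 246 and those labelled knockout 237 and 215. It was higher in the libraries labelled knockout than in the wild-type ones in PP, and the 2 labels overlapped in LP. A level over the whole gene does not show whether a deleted exon is missing, so these values do not check the labels, and the groups are named by label throughout.

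None of the 8 genes passed between genotypes by limma, in PP (0.360% of all genes tested passed), in LP (0.0285%) or with both tissues together (0.00949%). At an unadjusted p under 0.05 the counts were 0 in PP, 1 in LP and 3 with both tissues together, and the shares of all genes tested were 11.4%, 5.27% and 6.81%. With both tissues together, H2-Aa had a log2 fold change (labelled knockout minus wild-type) of -0.93 ± 0.29 (95% interval -1.58 to -0.29, limma adjusted p = 0.709) and H2-Ab1 -1.46 ± 0.52 (-2.60 to -0.31, adjusted p = 0.709). Cd83 had 0.56 ± 0.22 (0.07 to 1.05, adjusted p = 0.726). The I-A chains were thus listed lower and Cd83 higher in the libraries labelled knockout, without passing over all genes. H2-Ab1 depended on a single library: without the first LP library labelled knockout its value was -0.82 over both tissues, and in LP it went from -1.87 ± 0.81 (adjusted p = 0.963) to -0.49.

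By tissue, H2-Aa had a mean of 478 ± 244 RPKM in wild-type PP and 250.6 ± 31.7 in PP labelled knockout (SD, n = 2 each). Its LP means were 547 ± 3.35 RPKM for the wild-type and 278 ± 110.2 for the labelled knockout (SD, n = 2 each). H2-Ab1 had 672 ± 262 and 313 ± 14.9 RPKM in PP, and 332 ± 70.3 and 134 ± 141 in LP, in the same order. The libraries labelled knockout lay below the wild-type ones without overlap in both tissues for these 2 genes, an order that 3.42% of all genes tested had. Cd83 lay above without overlap in both tissues, as did 3.92% of all genes tested. In PP, its log2 fold change was 0.50 ± 0.29 (adjusted p = 0.671), or -0.08 under median-of-ratios rescaling, and in LP 0.62 ± 0.29 (adjusted p = 1).

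Cd74 had a log2 fold change of -0.92 ± 0.41 in PP (adjusted p = 0.471), where its means were 1301 ± 417 RPKM in the wild-type and 682 ± 178 in the libraries labelled knockout (SD, n = 2 each), without overlap. In LP its means were 565 ± 28.9 and 609 ± 313 RPKM and the libraries overlapped, and over both tissues the value was -0.45 ± 0.30 (adjusted p = 0.777). H2-Eb1 had 0.14 ± 0.34 over both tissues (95% interval -0.61 to 0.88, adjusted p = 0.975). The beta chains of I-A and I-E thus differed in sign, a contrast that was not tested. H2-DMb2 lay below in LP labelled knockout without overlap, at 0.0303 and 0.0971 RPKM against 7.67 and 0.0974, a gap set by values of a few reads.

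The genotype difference was also compared between the tissues. None of the 8 genes passed for this interaction by limma (0.0285% of all genes tested did), and none had an unadjusted p under 0.05 (8.75% of all genes tested). For Cd83, the difference in LP minus that in PP was 0.12 ± 0.41 on the log2 scale (95% interval -0.84 to 1.08, adjusted p = 0.976), so an interaction of close to 1 log2 unit in either direction is within the interval. Median-of-ratios rescaling gave 0.92 (adjusted p = 0.494).

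A list of 20 other genes of the class II pathway was read beside these 9, and 17 of them entered the tests. It held the DO chains, lysosomal proteases, the reductase Ifi30, ubiquitin ligases and the factors that bind the X and Y boxes. H2-Ea-ps had no row matched. The summed level over the 19 in the table was 1121 to 1294 RPKM in the PP libraries and 395 to 603 in LP, so the 2 tissues did not overlap. Most of this sum in every library came from the lysosomal proteases Ctss, Ctsl, Ctsb, Ctsd and Ctsz, so it says little about the other genes of the list. Between tissues, with both genotypes together, 0 of the 17 rose and 1 fell, where 4.33% of all genes tested passed. This was Ctsd, the aspartic protease cathepsin D, with a log2 fold change of -2.30 ± 0.47 (limma adjusted p = 0.0212). It had 159 to 413 RPKM in PP and 21.5 to 118 in LP. Of the 17, 13 had a log2 fold change below 0 (53.0% of all genes tested did), and their median was -1.26 beside -0.10 over all genes tested. None of the 17 passed within wild-type libraries, within libraries labelled knockout, between genotypes in either tissue, with both tissues together, or for the interaction. At an unadjusted p under 0.05 stood 7 of the 17 within wild-type libraries (17% of all genes tested) and 4 within libraries labelled knockout (14.7%). The counts were 0 for genotype in PP (11.4% of all genes tested), 2 in LP (5.27%), 1 over both tissues (6.81%) and 1 for the interaction (8.75%).

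**Figure D3:**
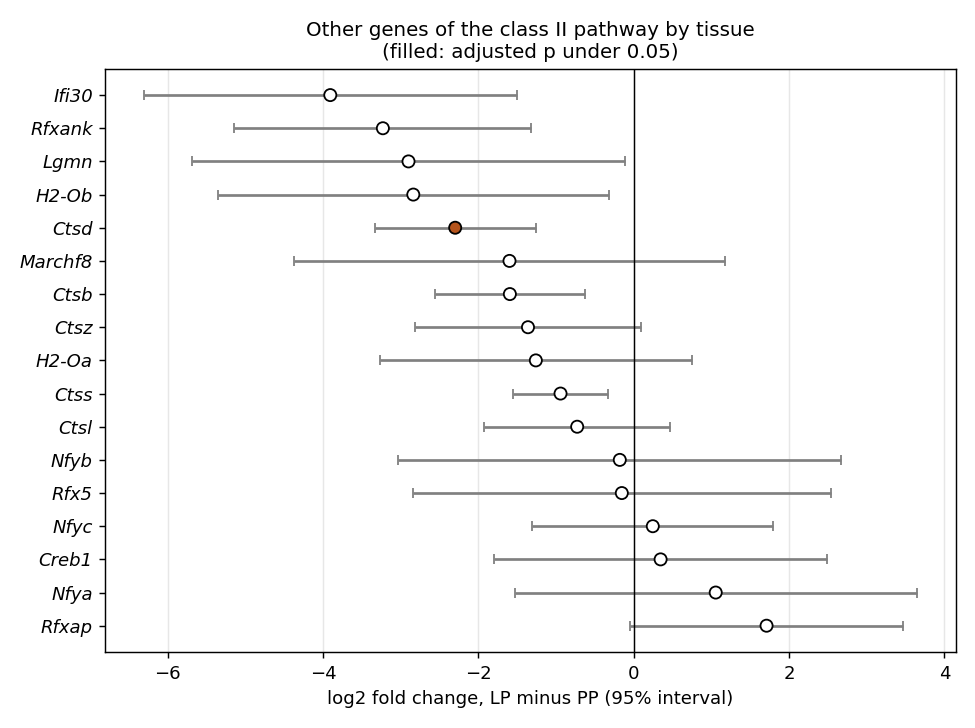
Log2 fold changes of RPKM + 1 between tissues (LP minus PP, points) with 95% intervals from limma (bars) for the 17 other class II pathway genes tested. Of these, 13 points lie below 0, and the filled point, Ctsd at -2.30, is the gene that passed.

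Members of this list, named after their values were seen, lay at very different levels. Ctss, the cathepsin that makes the last cuts in the invariant chain, had 200.2 to 291 RPKM in PP and 102.5 to 177 in LP. Ifi30, which reduces disulfide bonds of antigens, ranged over 28.4 to 137 RPKM (PP) and 0.311 to 25.4 (LP). H2-Oa, the alpha chain of the DM inhibitor DO, ranged over 44.9 to 84.9 RPKM in PP. In LP it had 77.7 and 80.3 RPKM (wild-type) and 23.1 and 0.752 (labelled knockout). H2-Ob, its beta chain, had 7.79 to 24.7 RPKM in PP and 0.0858 to 13.7 in LP. Of the 3 subunits of the X box factor RFX, Rfxank had 18.2 to 36.3 RPKM in PP and 0.0707 to 4.27 in LP. Rfx5 had 0.0366 to 0.131 RPKM in 4 libraries and at most 11.5 in the other 4. Rfxap had at most 0.0482 RPKM in 6 libraries, and 7.23 and 12.7 in the LP libraries labelled knockout. H2-Oa and Rfxap were the 2 genes of the list with an unadjusted p under 0.05 for genotype in LP (5.27% of all genes tested), without passing. Marchf1, which encodes MARCH1, the ligase that CD83 opposes, was listed at 0 in all 8 libraries.

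Of 10 genes of costimulation, the second signal that a presenting cell gives to a T cell, 8 entered the tests and none passed by limma in any of the 7 comparisons, with 1 or 2 at an unadjusted p under 0.05 in each (5.27% to 19.4% of all genes tested). Cd86 was listed at 0 in 7 libraries and had 0.831 RPKM in the other, and Cd70 was listed at 0 in all 8.

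Class II genes are strongly expressed in B cells, dendritic cells and macrophages, so markers of these cells were read in the same libraries. The sum over 15 B cell markers was 384 to 640 RPKM in PP and 84.8 to 135 in LP, lower in LP as H2-Eb1 was. Of these markers 11 entered the tests. With both genotypes together 1 of them fell in LP and none rose, where 4.33% of all genes tested passed. This was Spib, with 9.86 to 38.2 RPKM in PP and 0.0374 to 0.111 in LP. Pax5, which defines B cells, was listed at 0 in all 8 libraries, and Ebf1 was at most 0.074 RPKM. The sum over 20 dendritic cell and macrophage markers was 309 to 871 RPKM in PP and 102 to 186 in LP. Most of it was Batf3 in PP, at 289 to 823 RPKM, against 35.3 to 58.1 in LP, and 4 of the 20 entered the tests. Itgax was at most 0.0064 RPKM, and Flt3, C1qa, C1qb, C1qc and Mertk were listed at 0 in all 8 libraries. In all, 12 of the 20 were under 1 RPKM in every library. Without Batf3, a choice made after seeing the data, the sum over the other 19 was 0.80 to 47.9 RPKM in PP and 49.8 to 127.8 in LP, so that all LP libraries were above all PP ones, as for Cd83. Of the 4 tested, Batf3 fell in LP (limma adjusted p = 0.00140), and Zbtb46, Xcr1 and Cd14 had log2 fold changes of 1.64, 1.76 and 3.63 without passing (adjusted p = 0.426, 0.425 and 0.131). The part of such cells in the class II levels was not tested.

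**Figure D4:**
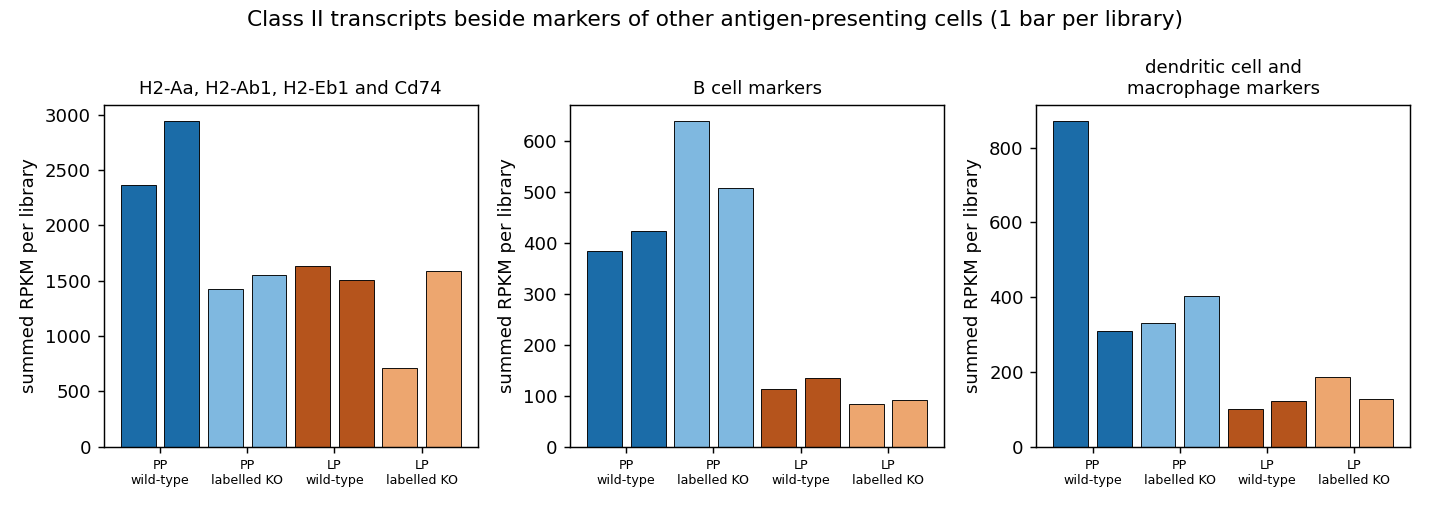
Summed RPKM in each library (1 bar each, from 0) of H2-Aa, H2-Ab1, H2-Eb1 and Cd74 (left), of the 15 B cell markers (middle) and of the 20 dendritic cell and macrophage markers (right). Both marker sums are lower in all 4 LP libraries than in all 4 PP libraries, the second of them through Batf3 alone, and the class II sum is highest in wild-type PP, at 2363 and 2943.

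Between genotypes in PP, where H2-Aa, H2-Ab1 and Cd74 were lower in the libraries labelled knockout without overlap (14.8% of all genes tested), the B cell marker sum was 384 and 424 RPKM in wild-type and 640 and 508 in labelled knockout libraries. The dendritic cell and macrophage sum was 871 and 309 against 330 and 403. In LP, where H2-Aa and H2-Ab1 were lower again (20.3% of all genes tested lay below without overlap), the B cell sum was 114 and 135 against 84.8 and 90.9, and the dendritic cell and macrophage sum 102 and 123 against 186 and 127. The B cell sum thus lay on opposite sides in the 2 tissues. Sums over other marker lists also differed by label in PP. The epithelial sum was 169.6 and 149.5 RPKM in wild-type PP against 613 and 721 in PP labelled knockout, with a median log2 fold change of 2.49 over 12 genes tested, of which 0 passed and 4 had an unadjusted p under 0.05 (11.4% of all genes tested). The plasma cell sum was 13430 and 13364 against 6912 and 6801, and the T cell sum 999 and 1001 against 732 and 797. Most of the plasma cell sum was Igkc, at 11411 and 11308 against 4748 and 4368 RPKM. Igha went the other way, at 1368 and 1438 against 1733 and 1939. These 2 sums do not stand for their lists. The median log2 fold change was -0.22 over 8 plasma cell genes tested and 0.07 over 10 T cell genes, beside 0.16 over all genes tested. In LP, the epithelial sum was 202 and 398 against 222 and 447, and the plasma cell sum 24421 and 38657 against 25186 and 25050. Their part in the values of H2-Aa, H2-Ab1 and Cd74 was not tested.

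Of the LTi and ILC3 markers, named after their values were seen, Il7r and Ccr6, which encode the CD127 and CCR6 of the sort, were at 206 to 454 and 89.3 to 597 RPKM. Id2, a regulator of innate lymphoid cells, was at 769 to 2024 RPKM, and Il23r, a cytokine receptor of ILC3, at 54.8 to 161. The plasma cell sum was 6801 to 13430 RPKM in PP and 24421 to 38657 in LP, the T cell sum 732 to 1001 and 272 to 458, and the epithelial sum 150 to 721 and 202 to 447. Immunoglobulin genes took 2.81% to 6.38% of the summed RPKM in PP and 10.3% to 17.1% in LP. Mitochondrially encoded genes took 3.06% to 5.06%, but 13.4% and 13.6% in the 2 PP libraries labelled knockout, and the part of either in the class II differences was not tested. Between 6365 and 8433 genes reached 1 RPKM in a library, and the 2 libraries of a group correlated over the genes tested at r = 0.578 to 0.745.

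The genes with the pattern most like H2-Aa, H2-Ab1, H2-Eb1 and Cd74 were looked for among 7628 other genes with a symbol and a mean of at least 5 RPKM, by Pearson's r over the 8 libraries with the mean log2 level of these 4 genes. That mean was 8.90 and 9.16 in wild-type PP, 8.42 and 8.35 in PP labelled knockout. For LP it was 8.53 and 8.24 (wild-type) and 6.98 and 8.37 (labelled knockout). The 10 most alike were Grsf1, Klhl6, Fbxw2, Sgf29, Gm10257, Mkrn1, Dkk3, Jak1, Upp1 and Gm5590, with r from 0.949 for Gm5590 to 0.967 for Klhl6 among all but Grsf1, which was above these. All 10 had their lowest level in the first LP library labelled knockout, as the mean of the 4 genes had. H2-Eb1 alone of the 4 was lowest elsewhere, in the second wild-type LP library. Without the first LP library labelled knockout, a choice made after seeing the data, r ran from 0.767 for Gm5590 to 0.933 for Dkk3. Dkk3, which encodes a secreted protein of the Dickkopf family, had 185 and 278 RPKM in wild-type PP and 30.6 in the library that stood low. Jak1, a kinase of cytokine receptors, had 135 and 252 RPKM in wild-type PP and 33.9 in that library. The 8 points share the depth and makeup of each library, and the choice of the highest of many values makes r large.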

How the data were processed

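RNA of sorted LTi cells was measured in 8 Smart-seq2 libraries, per the labels' protocols. The authors deposited a table of log2(RPKM + 1) values, where 0.0001 stands for 0 and was read as such. Per the submitters' processing notes, featureCounts of Subread and mm10 were used. Versions, aligner, annotation and strand were not given in the sources used here. Short RNA genes served to check the log base: after undoing log2, 95.2% to 100% of the values of a library were whole reads within 0.1 reads, against 73.7% to 91.3% for a natural logarithm. The same steps gave estimated depths of 37.8 to 43.6 M reads per library. For the first wild-type PP library the steps also allowed 76.8 M, with 100% whole values against 95.0% at 38.2 M. The lower depth, near the other 7, was used, and its approximate read numbers would be higher in proportion at the other. Reads without molecular identifiers can be PCR copies of a molecule, and the read numbers given are approximate.

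Genes that reached 1 RPKM in 2 or more libraries were fitted with limma 3.58.1 in R 4.3.3 on log2(RPKM + 1), a pseudocount of 1, with eBayes and a mean-spread trend, and two-sided tests. A model with 4 group means gave the comparisons within a tissue or genotype and the interaction. An additive model of genotype and tissue gave those over both. It treats all libraries as independent, although PP and LP cells could share a mouse. Positions are from RefSeq on GRCm38, the assembly of mm10, and 25275 of 27179 identifiers matched. The fits were also run on simulated data, but no outcome of that run is given here. The size of change that 2 libraries per group could detect is thus not stated. The genes and lists were chosen with earlier results of these data known. All 9 genes are described, and genes of other lists are named where they passed, up to 4 per list, or where stated after their values were seen. Alternatives were other pseudocounts, filters and scalings, the replicate number as a block, fits of the 2 groups compared, and leaving out each library. One marker gene and results that need it are not reported here.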

Additional observations from a re-analysis of the deposited data

How the results depend on the processing

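The tissue difference of Cd83 with both genotypes together passed in 15 of 15 alternatives (log2 fold change 2.66 to 2.93, limma adjusted p 5.71e-05 to 0.00336). Within wild-type libraries it passed in 13 of 16 (2.41 to 2.92) and within libraries labelled knockout in 12 of 16 (2.54 to 3.33). The number of the 9 genes passing ranged from 0 to 1 over the left-out libraries in both of these comparisons. Fitting only the 2 groups compared also gave 0 in place of 1 (adjusted p = 0.0619 and 0.0896). These fits held fewer libraries. The genotype and interaction counts were 0 in every alternative.

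Values near 0 changed sign. For Cd83 these were the genotype in PP, -0.0786 under median-of-ratios rescaling, and the interaction, -0.0072 under rescaling without immunoglobulin and mitochondrial genes, -0.21 without PP knockout replicate 2 and -0.0039 without LP knockout replicate 2 (-0.21 to 0.45 over the left-out libraries). The interaction moved furthest under median-of-ratios rescaling, from 0.12 to 0.92 (adjusted p = 0.494), without passing. The genotype value of H2-Eb1 over both tissues was -0.0423 under median-of-ratios rescaling, and -0.0061, -0.013 and -0.026 without PP knockout replicate 1, LP wild-type replicate 2 and LP knockout replicate 2 (-0.026 to 0.33 over the left-out libraries). Between tissues, H2-Aa was -0.0436 without PP wild-type replicate 1 (to 0.39 over the left-out libraries) and H2-DMa -0.70 without PP wild-type replicate 2 (to 1.52). The cause was not tested. For the I-A and I-E chains, Cd74, the DM genes, Ciita and Cd83, 22 log2 fold changes are printed with an estimate or interval. Over these, 319 of 336 alternatives kept direction and call, 10 changed sign and 7 lost the call. The lost calls were all of Cd83 between tissues within a genotype. For all but the tissue differences of Cd83, a kept call means not passing in either fit. Fold changes of genes of other lists, such as Ctsd, Cxcl10 and Tapbp, were not run under the alternatives. The median of all genes went under median-of-ratios rescaling from 0.16 to -0.07 for genotype in PP, from -0.29 to 0.01 for tissue in libraries labelled knockout and from -0.39 to 0.18 for the interaction.

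The difference between the libraries of a group showed no correlation between groups (-0.0214 to 0.0103 over 10541 genes). As each group gave only 1 such difference, this cannot tell whether libraries of the same replicate number share mice. With the replicate block, the counts of the 9 genes passing were 1 in each tissue comparison and 0 in the others, as without it. Over all genes the block moved the calls from 224 to 99 for tissue in wild-type, from 211 to 74 in libraries labelled knockout and from 38 to 16 for genotype in PP. Of low genes, H2-DMb1, H2-DMb2 and Ciita rest on a few reads in most libraries.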

Other observations

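Genes next to the class II pathway also differed between tissues. Of 17 genes of the interferon gamma signal, which is known to induce Ciita, 16 entered the tests and 4 rose in LP with both genotypes together, none fell, and their median log2 fold change was 0.61 beside -0.10 over all 10541 genes tested, of which 4.33% passed. Cxcl10, a chemokine that interferon gamma induces, was under 1 RPKM in all 4 PP libraries, at 0.756 to 0.940, and at 129.7 to 434 in LP (log2 fold change 6.91 ± 0.63, limma adjusted p = 2.24e-04). Cxcl9, a related chemokine, had 0.0884 to 0.146 RPKM in PP and 15.1 to 42.4 in LP (4.70 ± 0.88, limma adjusted p = 0.0140). Socs1, a feedback inhibitor of the pathway, went from 80.05 to 218 RPKM in PP to 353 to 407 in LP (1.58 ± 0.29, limma adjusted p = 0.0125). Ifngr1, a receptor subunit, went from 276 to 682 RPKM in PP to 601 to 1069 in LP, where the ranges overlapped (1.01 ± 0.20, limma adjusted p = 0.0187). Ciita did not pass in this comparison.

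Of 13 genes of the class I pathway, 1 fell and none rose in LP with both genotypes together, where 4.33% of all genes tested passed. This was Tapbp, which encodes tapasin, a loader of class I peptides, with 334 to 548 RPKM in PP and 109 to 173 in LP (-1.52 ± 0.28, limma adjusted p = 0.0128). B2m, the shared light chain of class I, had 4726 to 6306 RPKM in PP and 4779 to 6239 in LP.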
